A study of Mus musculus with 6 samples.

Results

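The remote spliced clone rows are 399 rows of a mouse brain expression table that carry the name of a FANTOM3 cDNA clone, lie more than 10 kb from every gene-symbol row on either strand, have a genomic span longer than their own length, and hold at least 30 counts summed over 6 libraries. They were chosen from 56826 rows, of which 33353 were clone rows. Of the clone rows, 3941 lay more than 10 kb from every gene row, 1516 of these were longer on the genome than in the row length, and 1117 of the 1516 fell short on counts. Position, length and the summed count chose the rows, not the difference between groups. One group had right middle cerebral artery occlusion by a filament for 1 h followed by 6 h of reperfusion (I/R, n = 3), a model of ischemic stroke. The other had a sham operation without the filament (n = 3). All libraries were ribosomal RNA-depleted total RNA of brain from adult male C57BL/6 mice aged 8 to 9 weeks, anesthetized with chloral hydrate in both groups. The labels name neither the brain region or side sampled nor whether each library came from its own animal. The p-values below therefore set group differences against the variation between these libraries, some of which may be technical.

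FANTOM cDNA clones are cloned, full-length-enriched mouse transcripts, and many that lie away from protein-coding genes are long noncoding RNAs (lncRNAs). Spliced lncRNAs are transcribed by RNA polymerase II and capped, are usually far less abundant than messenger RNAs, and in brain many are restricted to certain regions or cell types. A span longer than the transcript marks a gap in the alignment, which in a cDNA is usually an intron. Clones from very long brain genes can also be alternative first exons, alternative last exons or retained intron pieces of those genes.

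The clones could be tied to an annotated start in part. The 5′ end of 113 of the 399 clones lay within 200 bases of the start of a RefSeq gene on the same strand (GRCm38.p6, the same assembly as mm10), 97 at a lncRNA gene and 16 at a protein-coding gene, and these starts had 103 distinct promoter windows. A window runs from 250 bases before the start to 50 bases after it. Below are 4 of them from RefSeq, each 300 bases and read on the gene's strand. They belong to the best-counted lncRNA clone among the 8 with the smallest p in the higher direction (4932432F12, chr7:75029961-75030260, plus strand) and to a clone with a lower level in I/R (A730085P10, chr12:105899561-105899860, plus strand). The others are a start shared by 3 clones (6530403H02Rik, chr3:120886683-120886982, minus strand) and the CpG-rich start of an abundant clone (6330405H19, chr5:108367687-108367986, plus strand). RefSeq also places the protein-coding gene Gm42517, which has no gene row, over 6330405H19. Capitals mark matches to the motifs searched, on either strand.
4930533N22Rik (clone 4932432F12): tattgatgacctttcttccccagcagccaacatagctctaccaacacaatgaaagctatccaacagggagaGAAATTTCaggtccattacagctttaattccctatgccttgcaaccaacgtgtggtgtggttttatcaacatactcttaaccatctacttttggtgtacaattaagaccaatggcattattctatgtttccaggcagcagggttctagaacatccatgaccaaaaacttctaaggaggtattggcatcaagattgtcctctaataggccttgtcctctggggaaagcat
Gm19554 (clone A730085P10): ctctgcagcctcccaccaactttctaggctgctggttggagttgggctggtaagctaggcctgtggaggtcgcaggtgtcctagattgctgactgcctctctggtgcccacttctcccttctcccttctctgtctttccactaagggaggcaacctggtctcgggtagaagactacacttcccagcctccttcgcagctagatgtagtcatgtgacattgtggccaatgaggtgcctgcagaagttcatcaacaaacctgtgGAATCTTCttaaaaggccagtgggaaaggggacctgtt
6530403H02Rik (clones 6530403H02, B930017C09 and A830005H01): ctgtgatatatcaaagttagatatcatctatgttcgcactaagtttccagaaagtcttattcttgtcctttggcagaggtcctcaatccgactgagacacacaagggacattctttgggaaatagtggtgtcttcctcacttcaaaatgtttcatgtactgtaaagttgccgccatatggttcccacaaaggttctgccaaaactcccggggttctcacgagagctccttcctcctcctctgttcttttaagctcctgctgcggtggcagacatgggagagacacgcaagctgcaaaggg
Gm10419 (clone 6330405H19): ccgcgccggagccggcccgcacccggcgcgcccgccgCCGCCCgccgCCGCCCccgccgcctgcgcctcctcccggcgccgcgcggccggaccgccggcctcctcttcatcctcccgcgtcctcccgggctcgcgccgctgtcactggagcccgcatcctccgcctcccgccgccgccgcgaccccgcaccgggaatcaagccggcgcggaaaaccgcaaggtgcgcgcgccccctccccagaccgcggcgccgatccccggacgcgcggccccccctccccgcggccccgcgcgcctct

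The motifs searched were TGANTCA (AP-1), TGACGTCA (CRE), CACGTG (E-box), GGGCGG (GC box) and GAANNTTC (heat shock element core). In the 4 windows above, GAANNTTC occurred once at each of the starts of 4930533N22Rik and Gm19554, GGGCGG occurred 2 times at Gm10419, read there as its reverse complement, and none of the motifs was found at 6530403H02Rik. The Gm10419 window had 84.0% G and C and 60 CpG dinucleotides, against a median of 52.7% and 7 over all 32851 promoter windows. GGGCGG was found in 13.6% of the 103 windows at clone starts and in 35.7% of all promoter windows. TGANTCA was found in 6.80% and 7.81%, GAANNTTC in 6.80% and 7.86%, CACGTG in 4.85% and 7.15%, and TGACGTCA in 1.94% and 1.79%. These are descriptions of letters in a window.

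The clones were short as RNAs and scattered in the genome. Row length had a median of 1893 bases (275 to 6763), genomic span a median of 8.70 kb (0.440 to 1425 kb), and distance to the nearest gene row a median of 48.1 kb (10.2 to 1721 kb). They lay on 20 chromosomes, most often on chromosomes 2 and 3 (36 each), and 112 were more than 100 kb from any gene row. Within 10 kb of one another they formed 355 loci, of which 37 held 2 clones, 2 held 3 and 1 held 4. Just inside the rule were clones at 10166, 10299 and 10300 bases from a gene row, with 30 summed counts, or with a span 2, 7 or 8 bases over the length. Just outside were clones at 9904 and 9971 bases, with 29 counts, or with equal span and length. A gap of 2 to 95 bases, as in 32 clones, can be an alignment gap and not an intron, which the files cannot tell apart.

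Being far from the table's gene rows did not mean being far from annotated genes. RefSeq placed a lncRNA gene, and no protein-coding gene, over 217 clones (54.4%), a protein-coding gene over 88 (22.1%), only genes of other types, such as pseudogenes, over 20 (5.01%) and no gene over 74 (18.5%). The name intergenic therefore does not hold for the 88, which overlap the RefSeq span of a coding gene, introns included, although no gene row of the table comes within 10 kb. Any overlap counted, on either strand, and full containment was not checked. Clones said here to lie in, within or inside a gene are meant in this sense. For 172 clones the RefSeq lncRNA was on the clone's own strand, and for 42 it carried the clone's name. Among the 999 clone rows as remote and as well counted but with no gap, the coding share was 43.0% (430 rows) and the lncRNA share 20.5% (205 rows). The clone A930035F09 on chromosome 8, with 3 to 5 counts in I/R libraries and 4 to 8 counts in sham libraries, was the only clone row over a RefSeq microRNA gene, Mir21c.

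**Figure D1:**
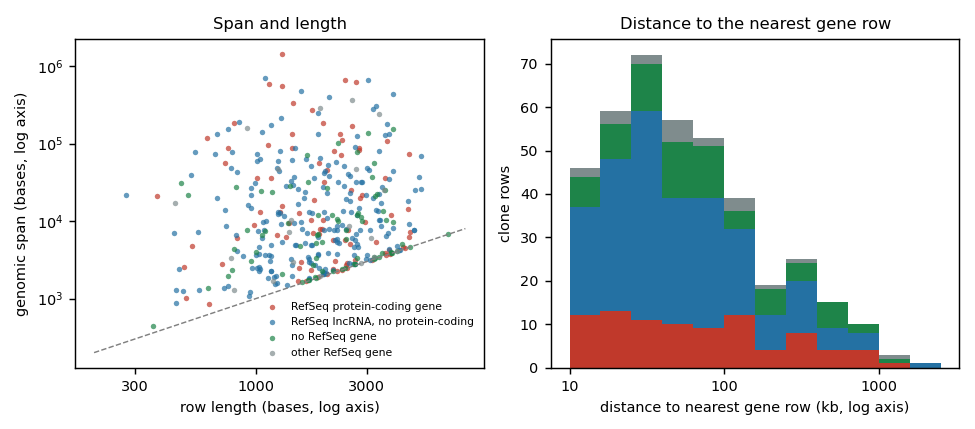
Geometry of the 399 remote spliced clone rows, coloured by the RefSeq gene they overlap. Left, genomic span against row length in bases on log axes, one point per clone, with a dashed line where both are equal; right, number of clones by distance to the nearest gene row in kb on a log axis. Spans reach 1425 kb while lengths stay between 275 and 6763 bases, and distances have a median of 48.1 kb.

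Together the clones took 0.0555% to 0.0687% of the counts of a library, whose totals were 45425867 to 49686109. The 10 clones of highest count held 34.7% of their counts. Of the 399 clones, 382 had counts in all 6 libraries. The median level was 0.195 RPKM (reads per kilobase per 1e6 reads, from the deposited counts and row lengths), with quartiles of 0.102 and 0.555. Clones that overlap another row may share reads with it. That was so for 166 clones, 50 of them with a row on the opposite strand, and the kit does not mark strand. No clone had counts identical to an overlapping row.

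The highest level per length was that of D930023J12 (chr16:42179846-42181533, plus strand), which lies in the RefSeq span of Lsamp, a neuronal adhesion protein of the limbic system. It had 22.6, 23.9 and 21.3 RPKM in I/R libraries and 31.9, 31.5 and 30.1 RPKM in sham libraries. The next was G630054N02 (chr13:97751112-97760963, plus strand) at 21.9, 23.2 and 23.2 RPKM in I/R and 23.2, 24.9 and 22.1 RPKM in sham. Its 5′ end is the start of Rps18-ps4, which RefSeq lists as a lncRNA and which is named as a pseudogene of a ribosomal protein gene, so its reads may be shared with near-identical copies. D930050I20 (chr16:39984386-41409552, plus strand) followed, a clone of 1297 bases that starts 22 bases from the RefSeq start of Lsamp, spans 1425 kb and overlaps 37 other rows. It had 14.02, 25.1 and 24.8 RPKM in I/R libraries and 20.8, 19.5 and 17.9 RPKM in sham libraries, so the groups overlapped and I/R replicate 1 was the lowest of all. The order of these 3 was not the same in both groups. In I/R the values of D930023J12 and G630054N02 crossed, and in sham D930023J12 was above in every library.

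Below them the levels fell off. 6330405H19 at the CpG-rich Gm10419 start (chr5:108367791-108372807) averaged 11.2 ± 0.703 RPKM in I/R and 10.2 ± 1.20 RPKM in sham (SD, n = 3 each), and its groups overlapped. 6030424D18 (chr17:69969368-70080309), inside Dlgap1, a scaffold of the postsynaptic density, averaged 8.61 ± 1.66 RPKM in I/R and 6.44 ± 0.363 RPKM in sham, with slight overlap. C130067L08 (chr1:4529184-4663948) averaged 7.92 ± 1.44 RPKM in I/R and 4.96 ± 0.467 RPKM in sham, with groups that did not overlap. The other 4 of the 10 highest were 6430593K19 on chromosome 9, which overlaps no RefSeq gene, 9330119I17 at the lncRNA gene AW047730, A830054G08 in Dpp10, which encodes an accessory subunit of potassium channels, and 4833430L01 at Gm16958, a lncRNA on the opposite strand to Ank2. Their group means lay between 4.89 and 5.88 RPKM, with I/R and sham ranges that overlapped for each. Differences in level between clones were not tested.

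The libraries carried brain markers, with all 8 neuronal markers tested and summed neuronal levels of 3703 to 4320 CPM (counts per 1e6 of the library's total) in I/R and 3967 to 4106 CPM in sham. Early response genes had summed levels of 997 to 1976 CPM in I/R and 242 to 502 CPM in sham, with 7 of 12 higher at an unadjusted p under 0.05. Of 5 neutrophil and monocyte markers tested out of 8, 4 were higher at that level, with sums of 9.51 to 15.4 CPM in I/R and 4.62 to 7.46 CPM in sham. Camp, a neutrophil granule gene, was on average below 0.1 CPM in both groups. Astrocyte markers summed to 4691 to 5190 CPM in I/R and 5389 to 5427 CPM in sham, with 3 of 8 lower. Microglial markers summed to 195 to 243 CPM in I/R and 185 to 197 CPM in sham, with 3 of 8 higher. Markers of choroid plexus and ependyma ranged from 25.4 CPM in I/R replicate 2 to 1223 CPM in I/R replicate 3, against 558 to 771 CPM in sham. Those of myelin ranged from 3869 to 9973 CPM in I/R and from 4529 to 5686 CPM in sham. Striatal markers ranged from 163 to 526 CPM in I/R and from 145 to 332 CPM in sham. Ngp, another neutrophil gene, averaged 0.188 CPM in I/R and 0.0405 CPM in sham, and no other marker of these 8 lists was below 0.1 CPM as a mean over all libraries. The part of tissue composition in the results on clones was not tested, and in bulk RNA fewer cells of a type cannot be told apart from less RNA per cell.

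After ischemia and reperfusion the clones leaned slightly upward, and none passed the test across all rows. Summed over all 399, they reached 591, 687 and 650 CPM in I/R and 586, 556 and 555 CPM in sham. On unscaled library totals the sums did not overlap, although I/R replicate 1 was close to sham replicate 1. The scaling factors of edgeR (TMM) were 1.03, 1.00 and 1.03 in I/R and 0.984, 0.969 and 0.990 in sham. Dividing by them puts I/R replicate 1 below sham replicate 1, so the absence of overlap depends on the scaling. Of 276 clones that passed the low-count filter, 170 had a log2 fold change above 0 and 106 below 0, and the median was 0.13. Over all 40170 rows tested, 53.1% were above 0 and 46.9% below, and the median was 0.02. The lean was not particular to these clones. Remote clone rows with no gap had a median of 0.18, with 491 of 779 above 0. The median was 0.11 for clone rows that overlap a gene row and −0.07 for clone rows within 10 kb of one. With edgeR's quasi-likelihood test and Benjamini-Hochberg adjustment over all rows tested, 0 of 276 clones were called and the smallest adjusted p was 0.129. The share called over all rows was 0.00249%. At an unadjusted p under 0.05, 28 clones were higher and 6 lower, where 8.73% of all rows tested were higher and 6.9% lower, so the share of higher clones (10.1%) was near the background and that of lower clones (2.17%) below it.

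The remaining 123 clones were too low to test, and counts over all 399 are given beside those of the tested clones. Mean CPM was higher in I/R for 250 of 399 clones and lower for 149, where 61.1% of all rows with at least 30 counts were higher and 38.9% lower. The groups did not overlap in 58 of 399 clones in the higher direction and 11 in the lower, against 13.9% and 6.6% of such rows. Among the tested clones these counts were 40 and 8, against 14% and 6.99% of all rows tested. With totals scaled by edgeR's TMM factors, which was chosen after seeing the data, they were 31 and 12. With RLE factors they were 30 and 12, and with upper-quartile factors 37 and 7. The shares over all rows were not computed with these scalings. Where overlap is stated for the level of a single clone, it is on totals without such scaling. Per clone, 3 libraries against 3 cannot give an exact p below 0.1.

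The number of calls depended on the tool and on 1 library. DESeq2 called 4 of the clones, C230094B03, 6030413N05, A230004G15 and D930023J12, with adjusted p from 0.00387 to 0.0428, where it called 1.7% of the rows that it gave an adjusted p. Without I/R replicate 1, edgeR called 7, namely these 4 and 6030424D18, A230097C02 and C130030D05, with adjusted p from 0.00751 to 0.0452, against 2.58% of rows tested. Without any other library edgeR called 0 of the clones. limma-voom called 0 of the clones. Without sham replicate 3 the 28 higher clones at an unadjusted p under 0.05 became 18.

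**Figure D2:**
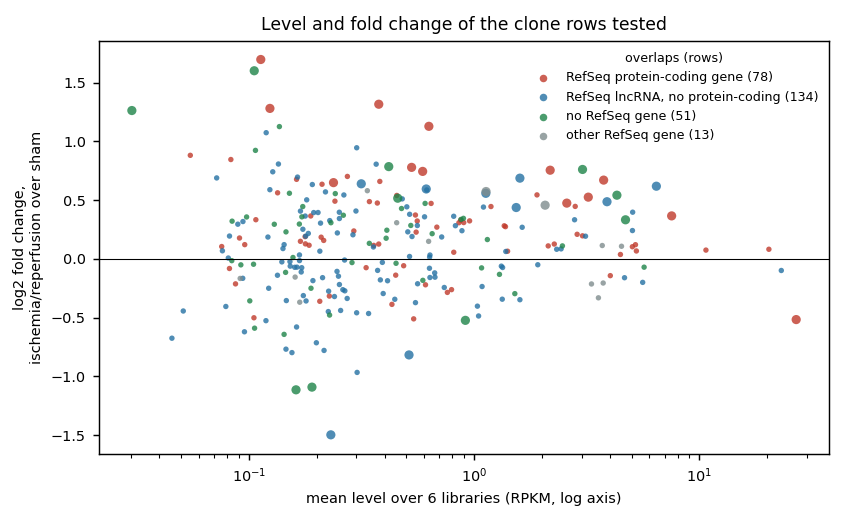
Log2 fold change (I/R over sham) of the 276 tested clones against mean level over the 6 libraries in RPKM on a log axis, coloured by the RefSeq gene overlapped. Large points have an unadjusted p under 0.05 (28 higher, 6 lower); D930023J12 is the point at the far right, below 0.

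The clones were also described by RefSeq context, without a test. Clones within a coding gene had a median log2 fold change of 0.23 and were positive in 63 of 78 tested. Clones over no RefSeq gene had a median of 0.23 with 32 of 51 positive, clones over other genes 0.11 with 7 of 13, and clones over a lncRNA gene 0.01 with 68 of 134. At an unadjusted p under 0.05, 12 clones in coding genes were above sham (15.4% of those tested) and 1 below (1.28%), against 8.73% and 6.9% of all rows tested. Over no gene 7 were higher (13.7%) and 3 lower (5.88%), and over lncRNA genes 7 were higher (5.22%) and 2 lower (1.49%). Over other genes 2 of 13 were higher and 0 lower. Clones that begin at the start of a RefSeq lncRNA had a median of −0.05, with 29 of 65 positive, 2 higher and 1 lower. Without the clones in coding genes, chosen after seeing the data, the median over the tested clones was 0.067, and 16 were higher by that unadjusted threshold.

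**Figure D3:**
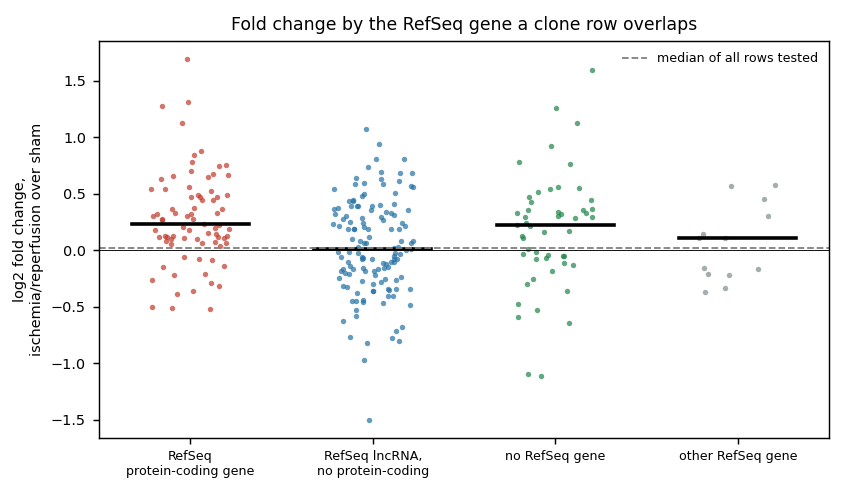
Log2 fold change (I/R over sham) of the tested clones by the RefSeq gene they overlap, one point per clone, with a bar at the median of each class and a dashed line at the median of all rows tested. The medians are 0.23 for coding genes, 0.01 for lncRNA genes, 0.23 for no gene and 0.11 for other genes.

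The unadjusted p was smallest, among higher clones, for C230094B03 (chr7:65473930-65478505, minus strand), which lies in the RefSeq span of Tjp1, the tight junction scaffold ZO-1. It had 1.85, 2.95 and 2.20 CPM in I/R libraries and 0.946, 1.10 and 0.655 CPM in sham libraries. Every I/R library was above every sham library. The log2 fold change was 1.32 ± 0.28 (SE), with an edgeR adjusted p of 0.148. 6030413N05 (chr16:34559540-34562703, minus strand) lies within Kalrn, whose protein acts in dendritic spines, and had 2.12, 3.40 and 2.75 CPM in I/R and 1.41, 1.33 and 0.900 CPM in sham. These groups did not overlap either, and the log2 fold change was 1.13 ± 0.26 (SE; edgeR adjusted p = 0.150). Its span exceeds its length by 7 bases, so it has no room for an intron.

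A230004G15 (chr10:73099435-73716595, plus strand) spans 617 kb for a length of 2712 bases and lies within Pcdh15, a protocadherin best known from the tip links of hair cells. It had 5.48, 7.87 and 9.18 CPM in I/R and 4.39, 3.53 and 4.93 CPM in sham, without overlap. The log2 fold change was 0.75 ± 0.20 (SE), with an edgeR adjusted p of 0.168. F830029E07 (chr15:23725793-23729653, minus strand) overlaps no RefSeq gene and lies 251 kb from Cdh18, a cadherin gene, the nearest gene row. Its values were 2.24, 1.93 and 1.96 CPM in I/R and 1.13, 1.33 and 0.962 CPM in sham, and all I/R libraries stood above all sham libraries. The fitted log2 fold change was 0.78 ± 0.23 (SE; edgeR adjusted p = 0.185).

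C130067L08, the abundant clone on chromosome 1, overlaps the RefSeq lncRNA Gm37323 on its strand and lies 32.8 kb from Sox17, an endothelial transcription factor gene. It had 4.63, 5.03 and 6.49 CPM in I/R and 3.02, 3.64 and 3.46 CPM in sham. The groups did not overlap, and the log2 fold change was 0.62 ± 0.18 (SE; edgeR adjusted p = 0.185). 4932432F12 (chr7:75030211-75058162, plus strand), whose start at 4930533N22Rik is shown above, lies 56.7 kb from Sv2b, a synaptic vesicle protein gene. It had the most counts of the lncRNA clones among the 28 higher ones, with 13.9, 16.8 and 17.6 CPM in I/R and 12.5, 11.9 and 8.74 CPM in sham. The values did not overlap, though I/R replicate 1 was close to sham replicate 1, and the log2 fold change was 0.49 ± 0.16 (SE; edgeR adjusted p = 0.213).

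4833422M21 (chr15:96248958-96254616, minus strand) had the largest fold change of the clones tested and few reads. The clone passed the low-count filter through its I/R libraries alone, and clones too low to test are not in this ranking. It had 22, 20 and 17 counts in I/R libraries and 2, 8 and 8 counts in sham libraries. Its log2 fold change was 1.70 ± 0.53 (SE; edgeR adjusted p = 0.201). RefSeq places the lncRNA 4833422M21Rik and the protein-coding gene Gm38469 there, and the nearest gene row, 13.9 kb away, is E330033B04Rik, with a log2 fold change of 0.52. The remaining clone of the 8 with smallest p, 9630044E16, is described with Ank2.

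The lower direction held fewer clones and 1 of high level. D930023J12, the most abundant of all clones, had 34.2, 36.2 and 32.3 CPM in I/R libraries and 48.3, 47.7 and 45.5 CPM in sham libraries. The groups were far apart relative to their spread, with means of 34.3 ± 1.97 CPM and 47.2 ± 1.45 CPM (SD, n = 3 each). Its log2 fold change of −0.52 ± 0.10 (SE) had the smallest p of the 276 clones, with an edgeR adjusted p of 0.129. The value lay between −0.57 and −0.47 under every alternative fit.

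A730085P10 (chr12:105899841-105902021, plus strand), a lncRNA clone that starts 30 bases from the RefSeq start of Gm19554, shown above, had 0.824, 0.824 and 0.572 CPM in I/R and 1.41, 1.06 and 1.31 CPM in sham. The groups did not overlap, and the log2 fold change was −0.82 ± 0.27 (SE; edgeR adjusted p = 0.219). D630005P11 (chr15:54952948-54964642, plus strand) at the lncRNA gene Gm26684 had 12, 7 and 4 counts in I/R and 27, 14 and 25 counts in sham. Without its sham libraries it would not have passed the low-count filter. It lies 32.8 kb from Enpp2, the gene of autotaxin, which is abundant in choroid plexus and whose row had a log2 fold change of −0.00. The clone's groups did not overlap, and its log2 fold change was −1.50 ± 0.50 (SE; edgeR adjusted p = 0.217). Choroid plexus and ependyma markers summed to 429, 25.4 and 1223 CPM in the I/R libraries, in order of replicate. The clone was lowest in I/R replicate 3, where these markers were highest, and a tie between them was not tested.

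The other lower clones had smaller differences or wider spreads. B230313K13 on chromosome 14, which overlaps no RefSeq gene, averaged 0.228 ± 0.0661 CPM in I/R and 0.471 ± 0.118 CPM in sham (SD, n = 3 each). B230374E05, 97.3 kb from Slitrk1, which encodes a neuronal membrane protein, averaged 2.03 ± 0.154 CPM in I/R and 2.81 ± 0.564 CPM in sham. In both, the groups did not overlap. C230001L12, on chromosome X, averaged 0.289 ± 0.159 CPM in I/R and 0.601 ± 0.242 CPM in sham, with overlap. Without their sham libraries, neither C230001L12 nor B230313K13 would have passed the low-count filter. A830017H18 on chromosome 14 and 8030444H21 on chromosome X came next by p, with log2 fold changes of −0.30 ± 0.15 and −0.49 ± 0.28 (SE), and both had overlapping groups and an unadjusted p above 0.05 (0.0759 and 0.109, edgeR).

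**Figure D4:**
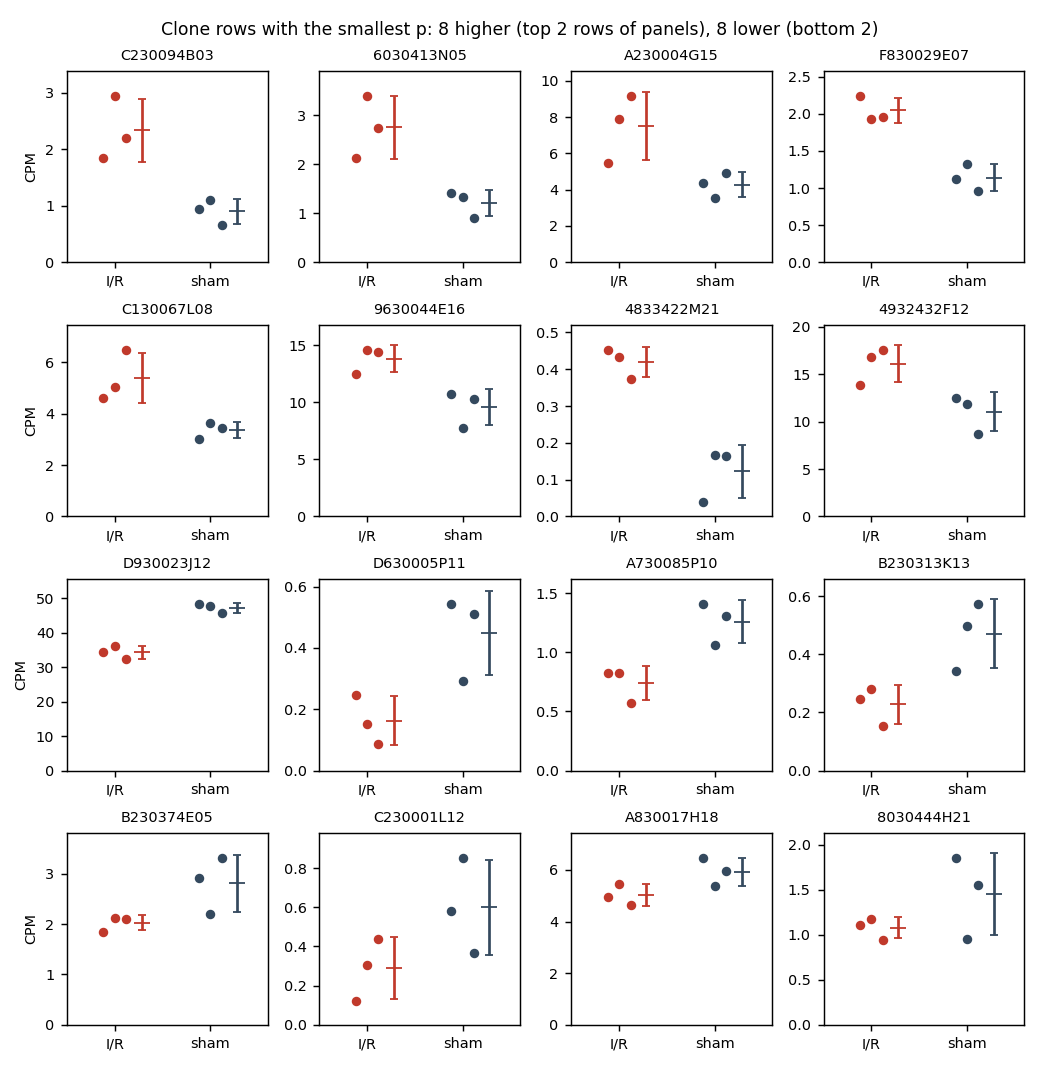
Level in CPM of the 8 higher (top rows of panels) and 8 lower (bottom rows) clones with the smallest unadjusted p, 1 point per library, with the mean and SD (n = 3) beside the points. I/R is left of sham in each panel and every axis starts at 0; D930023J12 lies at 32.3 to 36.2 CPM in I/R and 45.5 to 48.3 CPM in sham.

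The 88 clones that overlap coding genes could be set against the gene row of that gene, called the host. The gene row covers only part of the RefSeq gene for these hosts. In 64 pairs the clone lay upstream of the 5′ end of the host's row, in 4 pairs downstream of its 3′ end, and for 20 clones the host had no row. Both rows were tested in 55 upstream pairs, from 41 host genes, at a median distance of 90.3 kb (11.1 to 939 kb). There the clones had a median log2 fold change of 0.32 and 51 of 55 were positive, while the host rows had a median of 0.03, and the clone was above its host in 48 of 55 pairs. The 4 downstream clones all had a lower log2 fold change than their hosts, with medians of −0.36 for clones and 0.07 for hosts. By annotated strand, 41 of the 55 upstream clones were on the host's strand (35 of 41 above the host) and 14 on the opposite strand (13 of 14). Clones of the same host are not independent, and clones and hosts come from the same libraries.

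**Figure D5:**
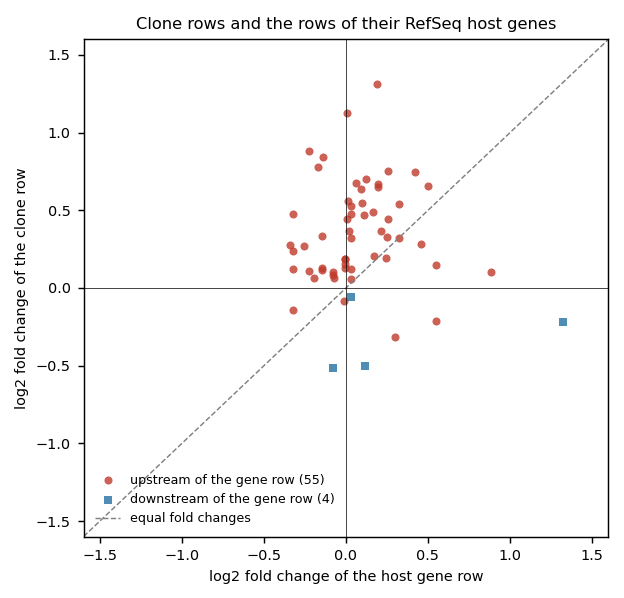
Log2 fold change (I/R over sham) of each tested clone against that of the gene row of the RefSeq coding gene it overlaps, for 55 clones upstream of the row and 4 downstream. The dashed line marks equal fold changes; 48 upstream points lie above it and all 4 downstream points lie below it.

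The pairs described next were chosen mainly for the small p of the clone, where the median difference over all upstream pairs was 0.29. For every 100 counts of the Tjp1 row, C230094B03 had 2.29, 4.27 and 2.72 counts in I/R libraries and 1.50, 1.84 and 0.908 counts in sham libraries. The Tjp1 row itself averaged 76.9 ± 6.78 CPM in I/R and 65.0 ± 6.43 CPM in sham, a log2 fold change of 0.19 ± 0.10 (SE). 6030413N05 had 0.472, 0.545 and 0.533 counts per 100 Kalrn counts in I/R and 0.264, 0.274 and 0.177 in sham, while the Kalrn row had a log2 fold change of 0.00 ± 0.12 (SE). The ratio did not overlap between groups in either pair, and the exact permutation test gave its smallest possible p of 0.1 for both (two-sided, n = 3 each). For pairs chosen by the clone's small p, here and below, the ratio reuses the same clone counts. Its p-value is then no separate evidence.

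A230004G15 had 35.6, 38.7 and 38.7 counts per 100 Pcdh15 counts in I/R and 29.3, 21.7 and 29.7 in sham, again without overlap (exact permutation p = 0.1, n = 3 each). C130030D05 (chr2:4017734-4021904), whose 5′ end lies 51 bases from the RefSeq start of Frmd4a, a scaffold protein with a FERM domain, had 10.6, 19.9 and 22.0 CPM in I/R and 10.7, 10.6 and 10.4 CPM in sham. Only I/R replicates 2 and 3 stood above sham. Without I/R replicate 1 its log2 fold change was 0.92, against 0.67 ± 0.24 (SE) with all libraries. 6030424D18 had 6.60, 7.32 and 8.41 counts per 100 Dlgap1 counts in I/R and 5.29, 5.72 and 6.61 in sham, with a slight overlap and an exact permutation p of 0.2. Its edgeR log2 fold change was 0.37 ± 0.15 (SE; adjusted p = 0.277), beside 0.02 for Dlgap1.

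Of the 55 upstream pairs, 7 had the clone below its host. The widest of these gaps were −0.78 for 9430099M08 (clone 0.10, host 5430427O19Rik 0.89), −0.76 for D230045O05 (−0.21, Adamtsl1 0.55) and −0.62 for 6330539K11 (−0.32, Cntn3 0.30), all as log2 fold changes, and none of the 3 clones had an unadjusted p under 0.05.

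Some pairs ran on opposite strands by annotation. As the kit does not mark strand, reads over these clones may come from either strand. 9230005N23 (chr2:67677031-67687282), opposite to B3galt1, which encodes a galactosyltransferase, averaged 1.17 ± 0.248 CPM in I/R and 0.653 ± 0.188 CPM in sham. The clone had a log2 fold change of 0.78 ± 0.31 (SE; edgeR adjusted p = 0.271), beside −0.17 ± 0.11 (SE) for the B3galt1 row. 4930537H20 (chr3:90292301-90293983), opposite to Gatad2b, which encodes a subunit of the NuRD chromatin complex, averaged 1.23 ± 0.0671 CPM in I/R and 0.708 ± 0.137 CPM in sham. Here clone and host both had positive values, 0.74 ± 0.27 and 0.42 ± 0.14 (SE).

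Lsamp held clones on both sides of its row. D930050I20 and C230009C12, upstream, had log2 fold changes of 0.08 ± 0.21 (SE) and 0.10, and the Lsamp row had −0.08 ± 0.14 (SE). D930023J12, 33.6 kb downstream, had −0.52. For every 100 Lsamp counts it had 60.0, 45.1 and 52.8 counts in I/R and 65.9, 69.5 and 75.2 in sham, without overlap (exact permutation p = 0.1, n = 3 each). The other downstream clones were C130087C22 beyond Socs2, a suppressor of cytokine signalling, A330077C17 beyond Nbas and 1700019P01 beyond Ttll8, at −0.06, −0.50 and −0.22. The exact permutation p of their ratio to the host was 0.6, 0.2 and 0.2 (n = 3 each).

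Ank2, which encodes the membrane scaffold ankyrin-B, held 5 tested clones. 9630044E16 (chr3:127334794-127408994, minus strand) and C130016P21 (chr3:127336973-127408952, minus strand) start 64 and 106 bases from the RefSeq start of Ank2 and overlap each other. This pair and C230001G04 with C530039G06 were taken from 37 loci of 2 clones by smallest p. 9630044E16 had 12.5, 14.6 and 14.4 CPM in I/R and 10.7, 7.77 and 10.3 CPM in sham. C130016P21 had 7.76, 9.37 and 9.73 CPM in I/R and 6.92, 4.32 and 6.73 CPM in sham. The groups did not overlap in either, and sham replicate 2 was the lowest library in both. Their log2 fold changes were 0.47 ± 0.15 and 0.52 ± 0.18 (SE), with edgeR adjusted p of 0.199 and 0.231, and they may share reads. E330005N08, further along the gene on the same strand, had 0.32, and the opposite-strand clones A330052K16 and 4833430L01 had 0.06 and 0.12, beside 0.03 ± 0.10 (SE) for the Ank2 row.

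The locus with most clones lay in Robo1, the axon guidance receptor for Slit proteins, at chr16:72164712-72358713, 304 to 496 kb from the Robo1 row. A330032A16 and D230050B13 are on the strand of Robo1, and 8030452G04 and 8030451O07, which begin at the RefSeq lncRNA 8030451O07Rik, are on the other. 8030452G04 and 8030451O07 had equal counts in 5 of 6 libraries, 18, 18 and 15 in I/R for both, so they are close to 1 measurement. A330032A16, 8030452G04 and 8030451O07 had log2 fold changes of 0.18 ± 0.40, 0.19 ± 0.42 and 0.13 ± 0.42 (SE), with overlapping groups. D230050B13, untested, had 8, 6 and 8 counts in I/R and 2, 3 and 3 counts in sham.

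On chromosome 15, from 85646083 to 85680835, 3 plus-strand clones without a RefSeq gene lay 25.8 to 47.6 kb from Mirlet7c-2, a let-7 microRNA gene. A130088B03 had 4.69, 4.81 and 2.91 CPM in I/R and 2.76, 3.35 and 3.32 CPM in sham. I/R replicate 3 fell within the sham range, and the log2 fold change was 0.34 ± 0.22 (SE). A130010L06 and A630035J15, which overlap each other, had 0.43 ± 0.28 and 0.47 ± 0.45 (SE). None of the 3 had an unadjusted p under 0.05.

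6530403H02, B930017C09 and A830005H01 share the 6530403H02Rik start shown above, overlap one another and run 192 to 432 kb on chromosome 3. 6530403H02 had 2.18, 1.08 and 1.03 CPM in I/R and 1.83, 1.18 and 1.68 CPM in sham. The other clones of this start showed the same order within I/R, with replicate 1 the highest and replicate 3 the lowest. Log2 fold changes were −0.18 ± 0.31, −0.45 ± 0.41 and −0.24 ± 0.35 (SE), and all groups overlapped. On chromosome 4, C230001G04 and C530039G06 lie at the lncRNA gene 4930578G10Rik near Ccl19, a chemokine gene, and overlap on opposite strands. C530039G06 (chr4:42723457-42726575) had 4.45, 8.76 and 5.33 CPM in I/R and 3.70, 4.197 and 3.19 CPM in sham, without overlap on unscaled totals, though I/R replicate 1 was close to sham replicate 2. Its log2 fold change was 0.69 ± 0.25 (SE; edgeR adjusted p = 0.244), and that of C230001G04 was 0.40 ± 0.32 (SE) with overlapping groups. I/R replicate 2 was the highest library for both.

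The clones were also described by distance and gap size. The median log2 fold change was −0.03 for 80 tested clones 10 to 25 kb from a gene row, 0.21 for 62 clones at 25 to 50 kb, 0.17 for 50 clones at 50 to 100 kb and 0.14 for 84 clones beyond 100 kb. An unadjusted p under 0.05 was reached by 6 higher and 1 lower clone, 4 higher and 2 lower, 6 higher and 3 lower, and 12 higher and 0 lower in these bins in order of distance, against 8.73% higher and 6.9% lower over all rows tested. The 29 tested clones with a gap under 100 bases had a median of 0.43, with 8 higher and 0 lower. The 247 with a longer gap had a median of 0.11, with 20 higher and 6 lower. For remote clone rows with no gap the median was 0.18 over 779 tested, with 83 higher and 32 lower. These strata were not tested against each other.

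Clones over no RefSeq gene were the least described by annotation. G270002J12 (chrX:143172663-143179451, minus strand), 68.3 kb from Rgag1, had 8.81, 10.6 and 10.2 CPM in I/R and 7.47, 8.14 and 7.04 CPM in sham. The groups did not overlap, with a log2 fold change of 0.33 ± 0.14 (SE; edgeR adjusted p = 0.292). A230097C02 (chr7:62202019-62209530, minus strand), 139 kb from Ndn, an imprinted gene expressed in neurons, had 4.26, 6.53 and 6.27 CPM in I/R and 3.84, 4.07 and 3.36 CPM in sham. Its log2 fold change was 0.54 ± 0.19 (SE; edgeR adjusted p = 0.236), and its groups did not overlap on unscaled totals. With TMM factors I/R replicate 1 falls below sham replicate 2, so the groups overlap.

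The clones farthest from any gene row were all on chromosomes 1 and 3. 9330185C12 (chr1:113891385-113964134) lay 1721 kb from Cntnap5a, a neurexin family gene, and had 4, 14 and 22 counts in I/R and 7, 9 and 16 counts in sham. I730075C10 (chr1:102926895-103212049), 1557 kb from the cadherin gene Cdh20, was well expressed at 7.97, 11.0 and 8.10 CPM in I/R and 7.99, 7.77 and 8.43 CPM in sham. 2810043G22 (chr3:23804335-23939477), 1492 kb from Nlgn1, a postsynaptic adhesion gene, lies in the RefSeq span of Naaladl2. In these 3 the groups overlapped, with log2 fold changes of 0.34 ± 0.61, 0.11 ± 0.16 and −0.36 ± 0.43 (SE).

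Variation between libraries of 1 group was large for some clones. Among clones with a mean of at least 0.5 CPM, 2900040C04 (chr14:76251462-76252325), a lncRNA clone at the start of 2900040C04Rik, had the widest range in I/R, with 19, 2 and 69 counts, against 37, 37 and 42 counts in sham. It was lowest in I/R replicate 2 and highest in I/R replicate 3, as the choroid plexus markers were. 6330420H09 and A830046P18, which overlap on chromosome 7 at 6330420H09Rik, 137 kb from Mki67, a proliferation marker gene, may share reads. 6330420H09 had 6, 72 and 35 counts in I/R and 19, 33 and 38 counts in sham. The widest ranges within sham were those of 3 other clones. 4833408G04 had 34, 15 and 18 counts in I/R and 10, 37 and 33 counts in sham, and 1110065L10 had 43, 11 and 29 counts in I/R and 67, 19 and 33 counts in sham. 9630032L19 had 45, 19 and 23 counts in I/R and 26, 49 and 16 counts in sham. None of these 6 clones had an unadjusted p under 0.05, and the part of tissue composition in them was not tested.

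The authors' deposited table lists all 399 clones and calls more of them. At a q under 0.05 the authors' deposited table gave 31 clones a positive and 2 a negative log2 fold change, against 14.7% and 9.77% of its 45851 rows. Out of 399 clones, both counts are smaller shares than those over all its rows. By the authors' deposited table, 5 clones also had a log2 fold change of at least 1, namely A830023H09 (2.73), 4833422M21 (1.77), E330038F23 (1.68), C230094B03 (1.37) and 6030413N05 (1.19). The 2 negative clones in the authors' deposited table were A730085P10 (−0.77) and D930023J12 (−0.46). A830023H09 (chr10:108446606-108449061), a lncRNA clone at Gm36283, 32.2 kb from Pawr, was too low to test with edgeR. It had 10, 17 and 11 counts in I/R libraries and 3, 3 and 0 counts in sham libraries, where 0 counts allow up to 0.0614 CPM (3 counts; counting error only). E330038F23 (chr14:34611209-34613688), over no RefSeq gene, had 24, 18 and 13 counts in I/R and 8, 2 and 8 counts in sham.

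For comparison, named lncRNA genes of brain outside the clone set leaned upward, while the tested clones over a lncRNA gene had a median of 0.01, with 68 of 134 positive. The list was chosen with earlier results of these data known, so its lean is no independent yardstick for the clones. Levels were not matched either. Malat1 averaged 8151 CPM in I/R, where the clones had a median of 0.348 CPM over all libraries. Of 22 genes listed, 16 had a tested gene row, with a median log2 fold change of 0.42. An unadjusted p under 0.05 (edgeR) was reached by 9 higher genes and 1 lower gene, against 8.73% and 6.9% of all rows tested. The smallest edgeR adjusted p among them was 0.123. Meg3, an imprinted lncRNA, averaged 1095 ± 192 CPM in I/R and 631 ± 31.0 CPM in sham (SD, n = 3 each), and its fitted log2 fold change was 0.74 ± 0.13 (SE; edgeR adjusted p = 0.123). Neat1, the scaffold of nuclear paraspeckles, averaged 84.8 ± 10.4 CPM in I/R and 44.6 ± 11.9 CPM in sham. Rmst, a lncRNA of neuronal differentiation, was the lower one, at 18.1 ± 2.77 CPM in I/R and 22.0 ± 3.74 CPM in sham.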

How the data were processed

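Per the labels' protocols, total brain RNA was extracted with Trizol, cleared of rRNA, built into NEBNext Ultra libraries and sequenced paired-end. The build was mm10, per the submitters' processing notes. The sources used here give no aligner, counter, annotation or strand setting. The deposited table holds raw counts, and the deposited RPKM values of the authors divide them by row length and column total. The authors' deposited comparison gives a log2 ratio of mean RPKM, and p-values and q-values from a test that is not described. Row lengths were used as deposited.

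From these, distances were measured between row spans (2 rows with start after end were turned round), RefSeq overlaps were taken by coordinates, and CPM used the column totals. The main test was edgeR 4.0.16 (R 4.3.3; TMM factors, filterByExpr, robust quasi-likelihood F test, two-sided, threshold 0.05) over 40170 rows, at a biological coefficient of variation of 17.4%. The SE is the log2 fold change over the square root of F. Replicates differed by more than sampling noise (chi-square per degree of freedom 8.26 to 29.7), so each library counted once. Host ratios used exact permutation tests. The fits were tested on simulated data. Alternatives were RLE and upper-quartile factors, other filters, DESeq2 1.42.0, limma-voom 3.58.1, no robust estimation, the replicate block, each library left out, and other thresholds of the rule. Clones were named by p (8 in each direction), by level (10 highest mean RPKM), by locus (5 with most clones, where 37 loci of 2 clones tied and the smallest p chose 2 of them), by distance (3 farthest), by range within a group (3 each), by closeness to a threshold, and by the authors' fold change (the 5 largest and 5 smallest at a q under 0.05, of which 2 were negative); C130030D05, A230097C02, 9430099M08, D230045O05, 6330539K11, A930035F09, C230009C12, E330005N08, A330052K16 and the pairs with Gatad2b, B3galt1, Socs2, Nbas and Ttll8 were added after their values were seen. The clones and all lists were chosen with earlier results of these data known.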

Additional observations from a re-analysis of the deposited data

How the results depend on the processing

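Requiring a mean of at least 1 CPM raised the median log2 fold change to 0.24 and left 2 lower clones at an unadjusted p under 0.05, with 25 higher and 3 lower clones whose groups did not overlap; fewer and more abundant clones were tested. DESeq2 called 4 clones; the cause was not tested. Leaving out 1 library gave 0 to 7 called clones, 18 to 41 higher and 4 to 9 lower clones, a median of 0.10 to 0.18, and 60 to 90 higher and 12 to 21 lower clones without overlap, counts that rise because fewer libraries are compared. For the counts without overlap in this paragraph, the shares over all rows were not computed. A distance over 50 kb left 195 clones with 18 higher and 3 lower. At least 100 summed counts left 198 clones and at least 10 gave 679. A span of at least 2 times the length left 13 higher and 3 lower. Without clones in RefSeq coding genes, chosen after seeing the data, 16 were higher and the median was 0.067. The replicate block, whose numbers pair no libraries (correlations of same-numbered deviations −0.07, 0.03 and 0.11), gave 0 called, 28 higher and 5 lower clones and a median of 0.12. Of 355 values of 24 named clones under 15 fits, 7 changed sign, all when a library was left out and none with an adjusted p under 0.5. Over the libraries left out, D930050I20 ran from -0.070 (without I/R replicate 2; -0.036 without I/R replicate 3) to 0.30, 6330405H19 from -0.014 (without sham replicate 2) to 0.14, 6430593K19 from -0.22 to 0.058 (without I/R replicate 1; 0.010 without sham replicate 1), A830054G08 from -0.23 to 0.22 and 4833430L01 from -0.011 to 0.24, the lowest of both without I/R replicate 2. A floor of 3 counts was 0.0604 to 0.0660 CPM per library, so clones near 30 summed counts are limited by depth.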

Other observations

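Remote clone rows with no gap, which are not part of the spliced set, had these values by annotation. Those in RefSeq coding genes had a median log2 fold change of 0.27 over 362 tested, and an unadjusted p under 0.05 was reached by 50 higher and 19 lower rows. Those over no RefSeq gene had 0.13 over 247 tested, with 21 higher and 7 lower, and those over a lncRNA gene 0.06 over 145 tested, with 10 higher and 5 lower. Those over other RefSeq genes had 0.18 over 25 tested, with 2 higher and 1 lower. All 999 together summed to 3962, 4531 and 4213 CPM in I/R and 3829, 4161 and 3621 CPM in sham, with overlapping groups. Clone rows that overlap a gene row had a median of 0.11, clone rows within 10 kb of a gene row −0.07, and gene rows −0.04.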
